A study of Mus musculus with 12 samples.

Results

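Complement components and receptors were examined in bone marrow-derived macrophages (BMMs) of the mouse. The 8 genes were chosen by name out of 38887 genes measured: C1qa, C1qb, C1qc, C3, Cfb, Cfp, C3ar1 and C5ar1. The RNA-Seq data comprised 12 poly(A) libraries, 3 each of WT M0, KO M0, WT M2 and KO M2 macrophages. KO mice carried loxP sites around exons 4 and 5 of Igf2bp2, which encodes an RNA-binding protein, and Cre recombinase inserted in the Lyz2 locus, which is active in myeloid cells. WT mice were littermates without floxed alleles, with Cre in some animals and not in others. All BMMs were differentiated for 6 days with 50 ng/ml M-CSF. M0 macrophages were then left untreated, and M2 macrophages received 20 ng/ml IL-4 for 8 h. Bone marrow was taken from mice aged 3 to 4 months, and the 3 libraries of a group came from 3 mice.

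Complement is a cascade of plasma and locally made proteins that marks particles for uptake and recruits leukocytes. In the classical pathway C1q binds antibody or other ligands on a surface, and in the alternative pathway C3 deposits on surfaces with the help of factor B and properdin. Both lead to cleavage of C3 and C5, whose small fragments C3a and C5a act on receptors of myeloid cells. Macrophages are a main source of C1q in tissues, whereas most plasma C3 is made by the liver.

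Totals per library lay between 20011792 and 39632770 expected counts, lowest in WT M2. Libraries of the same number in M0 and M2 were taken to come from the same mouse, as their names and their shared deviations from the group means allow. All 10 macrophage markers were tested, with a summed level of 6812 to 9172 CPM in every library (counts relative to the library total, scaled with TMM factors), of which Lgals3 made up 2053 to 3988 CPM and Mertk, the lowest, 4.52 to 8.09 CPM. IL-4 changed 8 of the 10 in WT, where 24.9% of all genes tested were higher and 25.1% lower. In KO it changed 6, where 26.8% were higher and 26.0% lower. Among them were Cd14, by -3.09 in WT and -2.86 in KO, and Fcgr1, by -1.03 and -1.14 on the log2 scale. The IL-4 targets Retnla, Chil3 and Mrc1 rose in both genotypes, with log2 fold changes of 10.99, 2.93 and 3.27 in WT and 11.27, 4.15 and 3.96 in KO (edgeR, largest adjusted p = 5.44e-06). Igf2bp2 ranged from 76.5 to 118 CPM in WT M0 and from 84.9 to 95.9 CPM in KO M0, with overlapping groups, and from 178 to 233 CPM in WT M2 and 129 to 146 CPM in KO M2. Counts of the whole gene include the exons outside the deleted part, so that they do not check the deletion. Lyz2, the site of the Cre insertion, lay between 7030 and 10544 CPM in WT M0 and between 22.1 and 33.2 CPM in KO M0, and effects of the Lyz2 change and of the Igf2bp2 deletion cannot be told apart between the genotypes. In bulk RNA, fewer cells of a type and less RNA per cell cannot be told apart.

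On the TPM scale, which divides by transcript length and allows genes to be compared, C1qb was the highest of the 8 genes in every group. In WT M0 macrophages C1qb reached 981 ± 35.1 TPM (SD, n = 3), above 98.7% of the genes tested. It was followed by Cfp with 659 ± 46.2 TPM and C5ar1 with 641 ± 24.2 TPM, whose libraries overlapped. C1qc (502 ± 44.9 TPM) and C3ar1 (443 ± 51.4 TPM) came next and also overlapped. C1qa stood lower, at 123 ± 1.11 TPM, and C3 lower still, at 32.1 ± 4.89 TPM. Cfb was close to the limit of detection at 0.497 ± 0.0666 TPM, above only 6% of the genes tested. In KO M0 macrophages the order was the same, and no neighbours overlapped. In WT M2 macrophages C3ar1 stood ahead of C5ar1 and C1qc, with overlap between C3ar1 and C5ar1 and between C5ar1 and C1qc. The KO M2 order was that of KO M0, with overlap between C5ar1 and C1qc.

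**Figure D1:**
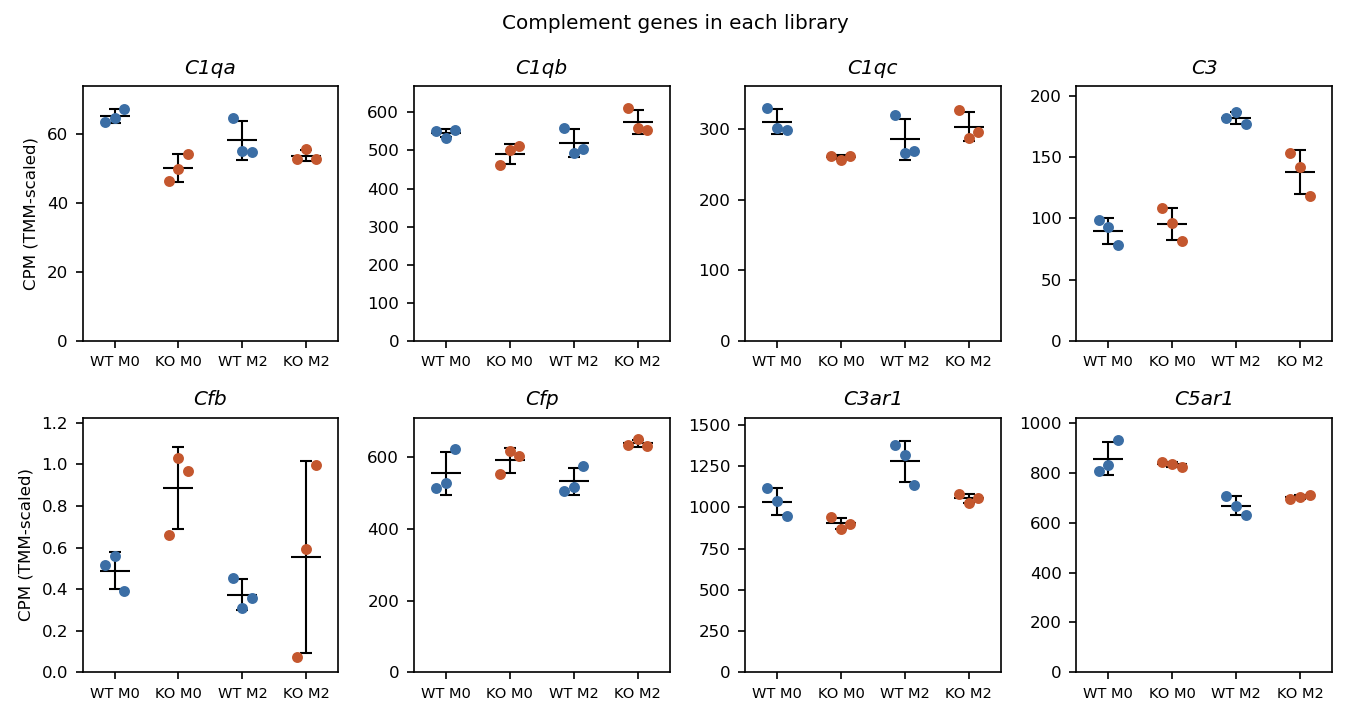
Levels of the 8 genes (CPM, y axes starting at 0) in the 4 groups. Points are libraries, blue for WT and red for KO, and bars give the mean ± SD (n = 3). C3 is higher in both M2 groups than in both M0 groups, and C5ar1 is lower in M2 than in M0.

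C1qa, C1qb and C1qc encode the A, B and C chains that assemble into C1q, the recognition part of the first component. The genes are neighbours on the minus strand of chromosome 4, at 136895917 to 136898803 (C1qa), 136880129 to 136886187 (C1qb) and 136889804 to 136893065 (C1qc, all GRCm38, protein-coding genes of GENCODE M21). In M0 macrophages C1qa and C1qc were lower in KO than in WT, whereas the difference of C1qb did not pass the test. The sequences before the start sites of C1qb and C1qc are shown because these chains varied together over the libraries, and that of C3 because IL-4 raised it in both genotypes. Capitals mark matches to a motif, on either strand.

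C1qb, chr4:136886201-136886450, minus strand: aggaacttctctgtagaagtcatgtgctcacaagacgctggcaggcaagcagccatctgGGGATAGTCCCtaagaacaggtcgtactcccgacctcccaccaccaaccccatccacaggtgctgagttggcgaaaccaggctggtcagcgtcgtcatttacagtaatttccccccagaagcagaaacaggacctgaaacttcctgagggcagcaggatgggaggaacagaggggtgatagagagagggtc

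C1qc, chr4:136893066-136893164, minus strand: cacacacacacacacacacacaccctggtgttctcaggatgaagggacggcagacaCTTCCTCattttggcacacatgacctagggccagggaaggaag

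C3, chr17:57228137-57228386, minus strand: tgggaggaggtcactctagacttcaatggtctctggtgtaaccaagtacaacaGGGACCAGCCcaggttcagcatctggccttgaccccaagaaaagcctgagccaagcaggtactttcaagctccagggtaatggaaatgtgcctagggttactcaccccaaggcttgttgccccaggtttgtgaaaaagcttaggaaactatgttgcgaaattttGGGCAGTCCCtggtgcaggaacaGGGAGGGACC

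The sequences are from RefSeq promoter windows of GRCm38.p6 (250 bases before to 50 after the start site), which held 6 of the 8 genes, not C1qa and Cfb. Bases downstream of the first start site annotated in RefSeq or GENCODE were left out, while positions of matches are counted from the RefSeq start site. On both strands the windows were searched for GAGGAAG (bound by PU.1), TGACTCA (AP-1), TTC and GAA with 4 bases between them (STAT6), GAAA repeated after 2 bases (interferon response) and GGGA followed by CC after 4 bases (NF-kB), the last of which can match both strands at overlapping places. Of 32851 promoter windows, 13.6% held the PU.1, 5.2% the AP-1, 6.95% the STAT6, 3.44% the interferon response and 20.7% the NF-kB letters. C1qb had overlapping NF-kB matches beginning at -191 and -190 from its start site. C1qc had a PU.1 match at -194 and an NF-kB match at -40 from its RefSeq start site (136892914). Its GENCODE start site (136893065) lies upstream of both the RefSeq site and the NF-kB match. The bases shown for C1qc end there, so that the NF-kB match is outside them. C3 had 3 NF-kB matches, at -197, -33 and -10, and C3ar1 had an AP-1 match at -22. C5ar1 and Cfp had no match in these windows, and none of the 6 had a STAT6 or interferon response match. Such matches are letters in a window, not sites of binding.

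C1qa was measured at 63.3, 64.7 and 67.3 CPM in the WT M0 libraries and at 46.3, 49.7 and 54.2 CPM in the KO M0 libraries. The groups did not overlap, and all KO libraries lay below all WT libraries. The log2 fold change was -0.38 (SE 0.07, 0.77-fold, edgeR adjusted p = 0.00685 by the Benjamini-Hochberg method). This call was kept in all 12 fits that left out 1 library (edgeR adjusted p of 0.00319 to 0.0375). C1qc was measured at 331, 302 and 299 CPM in WT M0 and at 262, 257 and 262 CPM in KO M0, again without overlap. Its log2 fold change was -0.26 (SE 0.07, 0.838-fold, edgeR adjusted p = 0.0428). The call of C1qc was lost in 6 of the 12 fits without 1 library, namely without WT M0 1 or 2, without any KO M0 library or without KO M2 3, with an edgeR adjusted p of up to 0.15. It was also lost in the 3 limma fits on log2 TPM. C1qb showed 551, 533 and 554 CPM in WT M0 and 462, 501 and 512 CPM in KO M0. The KO values were the lower ones without overlap, but the change of -0.15 on the log2 scale (SE 0.06) did not pass the test (edgeR adjusted p = 0.136).

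In M2 macrophages the 3 chains did not pass the test between the genotypes. C1qa was measured at 64.6, 55 and 54.8 CPM in WT M2 and 52.6, 55.7 and 52.8 CPM in KO M2, which overlapped (log2 fold change -0.12, SE 0.07, edgeR adjusted p = 0.393). C1qb was measured at 560, 492 and 505 CPM in WT M2 and at 612, 560 and 553 CPM in KO M2. The libraries overlapped, and its log2 fold change was 0.15 (SE 0.06, edgeR adjusted p = 0.194), opposite in sign to that in M0. C1qc was measured at 320, 267 and 270 CPM in WT M2 and at 327, 288 and 297 CPM in KO M2, with overlap, and the change was 0.09 on the log2 scale (SE 0.07, edgeR adjusted p = 0.508).

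In response to IL-4, C1qb and C1qc rose in KO macrophages. The log2 fold changes in KO were 0.23 for C1qb (SE 0.06, edgeR adjusted p = 0.00655) and 0.22 for C1qc (SE 0.07, edgeR adjusted p = 0.0191), and both genes were higher in M2 than in M0 in 3 of 3 KO mice. The C1qb call was lost in 1 limma fit, on posterior mean TPM. The C1qc call was lost in 4 of the 12 fits without 1 library (any KO M0 library or KO M2 1, edgeR adjusted p of up to 0.0794) and in the 3 limma fits. In WT macrophages the log2 fold changes were -0.07 for C1qb (SE 0.06, edgeR adjusted p = 0.338) and -0.12 for C1qc (SE 0.07, edgeR adjusted p = 0.177). With the mouse as a block, C1qc passed the test in WT as well, at -0.13 (edgeR adjusted p = 0.0322), with 3 of 3 mice lower. C1qa changed by -0.16 in WT (SE 0.07, edgeR adjusted p = 0.0808) and by 0.10 in KO (SE 0.07, edgeR adjusted p = 0.26), neither of which passed the test. The 3 limma fits called C1qa lower in WT (limma adjusted p of 0.0205 to 0.0222), and the fit on posterior mean TPM also called C1qb and C1qc lower there (limma adjusted p = 0.0474 each).

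The difference between the IL-4 responses, tested as KO response minus WT response, was 0.26 for C1qa, 0.30 for C1qb and 0.35 for C1qc on the log2 scale. None passed the test (SE 0.10, 0.09 and 0.10, edgeR adjusted p = 0.198, 0.0788 and 0.0872). With the mouse as a block, the difference of C1qc passed (0.35, SE 0.06, edgeR adjusted p = 0.0106), whereas those of C1qb (0.30, edgeR adjusted p = 0.0539) and C1qa (0.27, edgeR adjusted p = 0.129) did not. Without WT M2 1, the edgeR adjusted p was 0.0372 for C1qb and 0.0222 for C1qc. DESeq2 without a block called both (adjusted p = 0.0217 and 0.0298).

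The RNA levels of the chains, as estimated by TPM, were not equal. The ratio of C1qb to C1qa on the TPM scale was 8.29, 7.85 and 7.85 in WT M0 and 9.51, 9.61 and 9.00 in KO M0. In M2 it was 8.26, 8.51 and 8.78 in WT and 11.1, 9.58 and 9.99 in KO. The KO libraries thus lay above the WT libraries under both treatments, and the ratios were not tested. The ratio of C1qb to C1qc stayed between 1.85 and 2.17 in all 12 libraries. Summed over the 3 chains, the level was 1605 ± 80.5 TPM in WT and 1386 ± 38.7 TPM in KO without IL-4, and 1437 ± 122 TPM in WT and 1522 ± 32 TPM in KO with it (SD, n = 3).

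**Figure D2:**
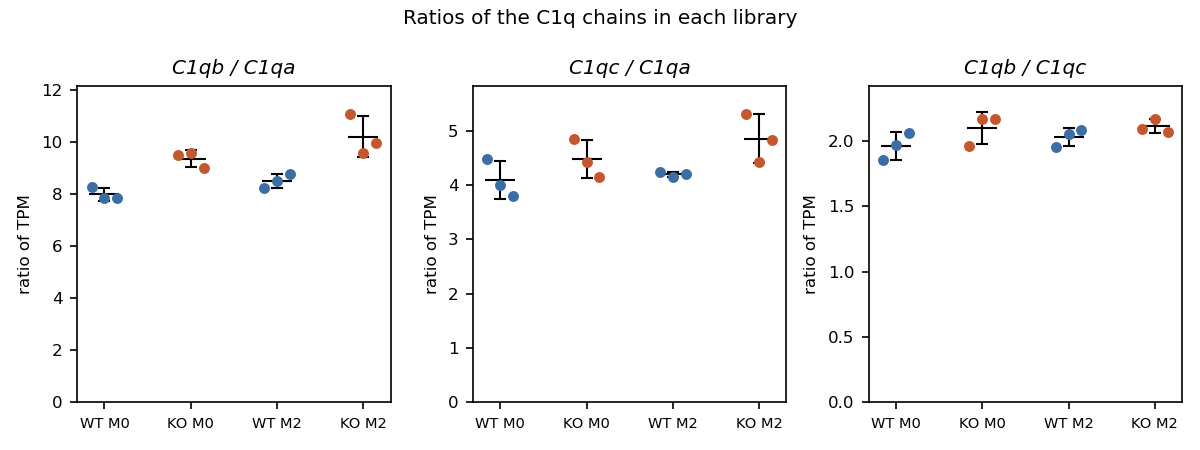
Ratios of TPM values between the C1q chains (y axes starting at 0) in the 4 groups, with points for libraries and bars for the mean ± SD (n = 3). The ratio of C1qb to C1qa is higher in all KO libraries than in the WT libraries of the same treatment, while C1qb to C1qc stays between 1.85 and 2.17.

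C3 is the central component, cleaved by both pathways. It lies on chromosome 17 (57203970 to 57228136, minus strand). IL-4 raised it in both genotypes, in 3 of 3 mice each. In WT it was measured at 98.4, 92.7 and 77.9 CPM in M0 and at 182, 187 and 177 CPM in M2. The M2 libraries all lay above the M0 libraries, and the change was 1.02 on the log2 scale (SE 0.11, 2.03-fold, edgeR adjusted p = 9.83e-06). In KO it was measured at 108, 96.3 and 81.4 CPM in M0 and at 153, 142 and 118 CPM in M2, also without overlap. The log2 fold change in KO was 0.53 (SE 0.11, 1.45-fold, edgeR adjusted p = 0.00153). Both calls were kept in all fits without 1 library and under all alternatives.

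The IL-4 change of C3 in single mice was 0.88, 1.01 and 1.18 on the log2 scale in WT and 0.50, 0.56 and 0.54 in KO, so that every WT mouse lay above every KO mouse. The difference between the responses was -0.49 (SE 0.16) and did not pass the test across all 12 libraries (edgeR adjusted p = 0.128). With the mouse as a block it passed (-0.49, SE 0.07, edgeR adjusted p = 0.00646), as it did in DESeq2 without a block (adjusted p = 0.0429). Between the genotypes C3 was 0.09 in M0 (SE 0.11, edgeR adjusted p = 0.693), with overlapping libraries, and -0.40 in M2 (SE 0.11, edgeR adjusted p = 0.0816), where all KO libraries lay below all WT libraries.

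**Figure D3:**
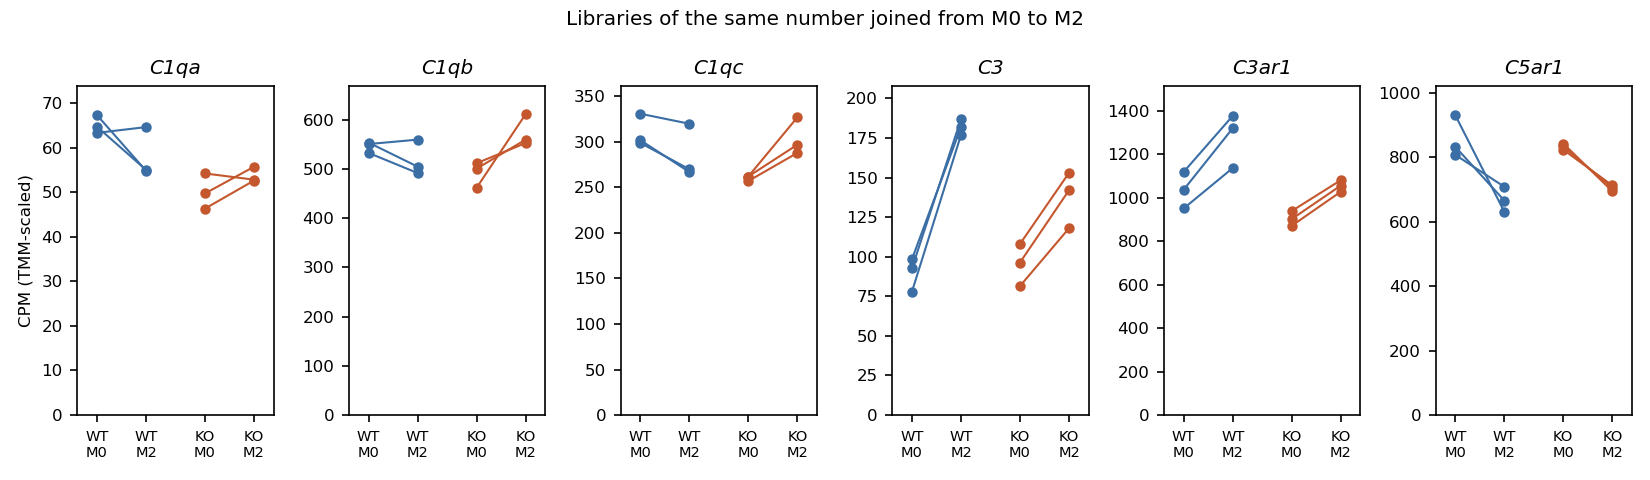
Levels (CPM, y axes starting at 0) of 6 genes in M0 and M2 macrophages, with lines joining the libraries of the same number, blue for WT and red for KO. C3 rises more steeply in the 3 WT mice (0.88 to 1.18 on the log2 scale) than in the 3 KO mice (0.50 to 0.56).

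Cfp encodes properdin, a plasma protein that stabilizes the convertase of the alternative pathway, and lies on chromosome X (20925454 to 20931555, minus strand). It was among the highest of the 8 genes. It was measured at 513, 527 and 623 CPM in WT M0 and at 551, 616 and 602 CPM in KO M0, which overlapped (log2 fold change 0.09, SE 0.07, edgeR adjusted p = 0.496). In M2 it was measured at 505, 517 and 575 CPM in WT and at 633, 649 and 631 CPM in KO. These groups did not overlap, but the change of 0.26 on the log2 scale (SE 0.07, edgeR adjusted p = 0.0869) did not pass the test. IL-4 changed Cfp by -0.06 in WT (SE 0.07, edgeR adjusted p = 0.553) and by 0.11 in KO (SE 0.07, edgeR adjusted p = 0.225). With the mouse as a block the latter passed the test (0.11, edgeR adjusted p = 0.0322), with 3 of 3 KO mice higher. KO and WT responses of Cfp differed by 0.17 (SE 0.11, edgeR adjusted p = 0.433).

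Cfb encodes factor B, the protease of the alternative pathway convertase, and lies on chromosome 17 (34856374 to 34862518, minus strand). It was measured at 0.517, 0.559 and 0.389 CPM in WT M0 and at 0.661, 1.03 and 0.968 CPM in KO M0. After IL-4 it was at 0.454, 0.309 and 0.358 CPM in WT and at 0.0753, 0.595 and 0.996 CPM in KO. The KO M2 libraries differed most among themselves, with both the lowest value of all 12 and a value close to the highest. A count of 3 corresponded to 0.0757 to 0.15 CPM (0.11 in KO M2 1), which is the floor used here per library. This floor was taken from the library totals without the TMM factors. The log2 fold changes were 0.86 in M0 and 0.62 in M2 between the genotypes, and -0.38 in WT and -0.62 in KO for IL-4 (SE 0.51, 0.58, 0.60 and 0.48, edgeR adjusted p = 0.313, 0.586, 0.631 and 0.305). KO and WT responses of Cfb differed by -0.24 (SE 0.78, edgeR adjusted p = 0.908). No change of Cfb passed the test in edgeR, and the sign turned under other settings in several comparisons. For IL-4 in KO, limma called Cfb lower on log2(TPM + 1) (-0.44, limma adjusted p = 0.0412) and on log2(posterior mean TPM + 1) (-0.37, limma adjusted p = 0.0205). In single KO mice the change was -3.13, -0.80 and 0.04 on the log2 scale of CPM, with 2 mice lower and 1 higher. The expected counts of Cfb were 2 to 39 per library, and the 2 counts of KO M2 1 lay under the floor of 3 counts. The estimated length by which its counts are divided for TPM ranged from 1085 to 2654 bases between libraries, so that its TPM and CPM can differ. Gm20547, which overlaps Cfb on the same strand, had 0 to 4 expected counts per library.

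C3ar1 encodes the receptor for C3a, and C5ar1 the receptor for C5a that attracts and activates myeloid cells. They lie on chromosome 6 (122847138 to 122856161) and chromosome 7 (16246743 to 16259540), both on the minus strand. IL-4 moved them in opposite directions in both genotypes, C3ar1 up and C5ar1 down, each in 3 of 3 mice.

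C3ar1 was measured at 1118, 1036 and 950 CPM in WT M0 and at 1376, 1319 and 1136 CPM in WT M2. It rose by 0.30 on the log2 scale (SE 0.07, 1.23-fold, edgeR adjusted p = 0.00372). In KO it was measured at 938, 870 and 901 CPM in M0 and at 1080, 1027 and 1055 CPM in M2, and rose by 0.22 (SE 0.07, 1.17-fold, edgeR adjusted p = 0.0202). The KO call was lost in 3 of the 12 fits without 1 library (KO M0 2, KO M0 3 or KO M2 1, edgeR adjusted p of up to 0.0883) and in the 3 limma fits, and the WT call was lost in 1 of these limma fits. Between the genotypes all KO libraries lay below all WT libraries in both treatments, by -0.20 (M0) and -0.28 (M2) on the log2 scale. Neither passed the test in edgeR (SE 0.07 each, edgeR adjusted p = 0.111 and 0.0652). DESeq2 called the M2 difference (-0.28, adjusted p = 0.0113). In M0 the edgeR adjusted p was 0.0436 without WT M0 3, and in M2 it went down to 0.0233 without WT M0 1, WT M0 3 or WT M2 3.

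C5ar1 was measured at 807, 832 and 930 CPM in WT M0 and at 708, 665 and 630 CPM in WT M2. It fell by 0.36 on the log2 scale (SE 0.06, 0.78-fold, edgeR adjusted p = 0.000177). In KO it was measured at 842, 833 and 823 CPM in M0 and at 694, 704 and 712 CPM in M2, and fell by 0.24 (SE 0.06, 0.845-fold, edgeR adjusted p = 0.00293). Both calls were kept in all fits without 1 library and under all alternatives. Between the genotypes the log2 fold change was -0.04 in M0 and 0.08 in M2 (SE 0.06 each, edgeR adjusted p = 0.702 and 0.486), with overlapping libraries. The differences between the IL-4 responses were -0.08 for C3ar1 and 0.12 for C5ar1 (SE 0.10 and 0.08, edgeR adjusted p = 0.735 and 0.486). The ratio of C3ar1 to C5ar1 on the TPM scale was 0.694 ± 0.104 in WT and 0.619 ± 0.0207 in KO without IL-4, and 1.09 ± 0.0547 in WT and 0.857 ± 0.0306 in KO with it (SD, n = 3).

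**Figure D4:**
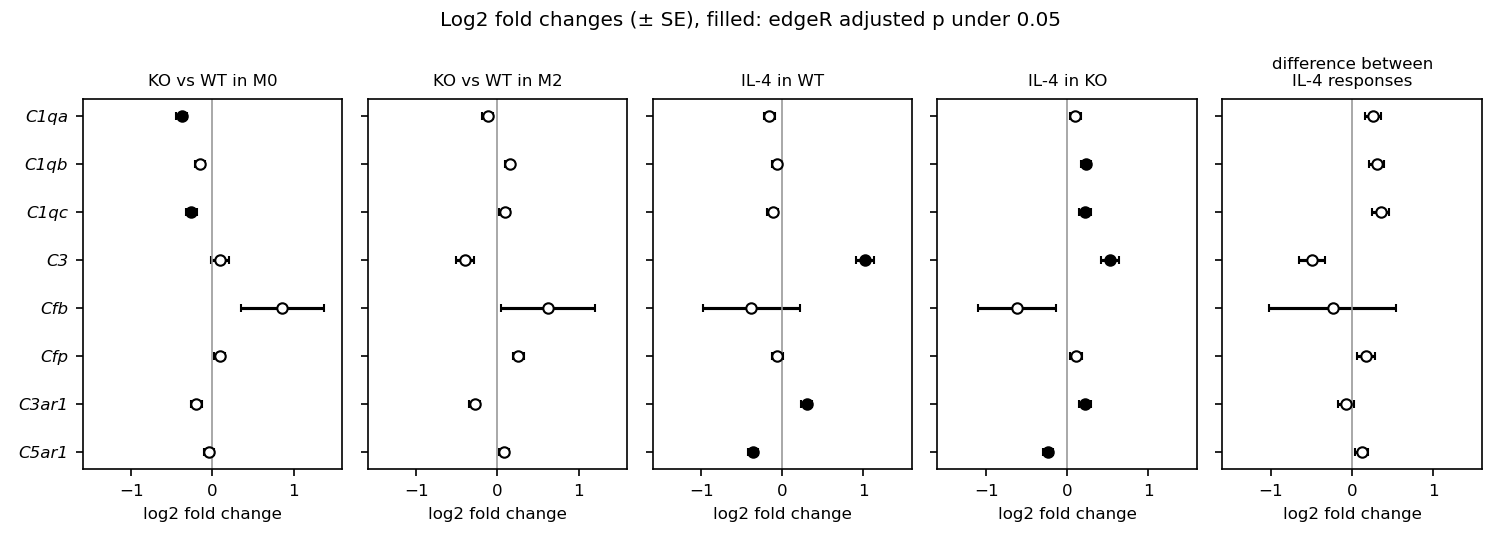
Log2 fold changes of the 8 genes (x axes) with their SE in the 5 comparisons, with filled points for an edgeR adjusted p under 0.05. C3 and C3ar1 are above 0 and C5ar1 is below 0 for IL-4 in both genotypes, and no point is filled for KO against WT in M2 or for the difference between the responses.

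Counted over the 8 genes, KO against WT gave 2 lower and 0 higher calls in M0, where 4.27% of all 12846 genes tested were called lower and 5.50% higher. In M2, 0 of the 8 were called by edgeR, where 1.21% of all genes were called higher and 1.46% lower. At an unadjusted p under 0.05 there were 4 of the 8 and 20.3% of all genes. DESeq2 called 3 of the 8 (C3, C3ar1 and Cfp, adjusted p = 0.0174, 0.0113 and 0.0222) and 5.93% of all genes. Without a filter on low counts, edgeR called 2 of the 8 (C3 and Cfp) and 2.05% of all genes. The 3 limma fits called 0 of the 8, and 0.545%, 0.444% and 1.56% of all genes with log2(TPM + 1), log2(TPM + 0.1) and the posterior mean. IL-4 raised 2 and lowered 1 in WT, where 24.9% of all genes were higher and 25.1% lower, and raised 4 and lowered 1 in KO, where 26.8% were higher and 26.0% lower. For the difference between the responses, 0 of the 8 were called by edgeR, where 1.11% of all genes were called higher and 2.13% lower. At an unadjusted p under 0.05 there were 4 of the 8 and 17.8% of all genes. DESeq2 called 3 of the 8 (C1qb, C1qc and C3) and 7.60% of all genes. The 3 limma fits called 0 of the 8, and in the same order 0.880%, 0.880% and 1.27% of all genes. With the mouse as a block 2 of the 8 were called, C1qc and C3, and 7.81% of all genes. The median log2 fold change of the 8 genes was -0.10 in M0, 0.08 in M2, -0.10 for IL-4 in WT and 0.17 for IL-4 in KO, while that of all genes tested was -0.001, -0.001, -0.008 and 0.014. The comparisons share libraries, so that their values are not independent of each other.

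Markers of other cells were also compared. The summed level of 10 neutrophil markers was 9.31 to 24.2 CPM in WT M0 and 5.95 to 6.32 CPM in KO M0. Here 3 of the 5 tested genes were lower in KO, against 4.27% of all genes tested. Ly6g was at 0 in every library, and 6 of the 10 were under 1 CPM in every library. In M2 the neutrophil sum was 5.67 to 14.4 CPM in WT and 5.69 to 7.06 CPM in KO, with overlap and 0 of the 5 tested genes called by edgeR (2 at an unadjusted p under 0.05). The sum of 10 stromal markers was 38.4 to 67 CPM in WT M0 and 10.8 to 37.9 CPM in KO M0, and 41.9 to 76.6 CPM in WT M2 and 11.9 to 32.8 CPM in KO M2, with 0 of the 8 tested genes called by edgeR (1 in M0 and 6 in M2 at an unadjusted p under 0.05). With IL-4, the neutrophil markers Ngp (-1.28, edgeR adjusted p = 0.023) and S100a9 (-0.75, edgeR adjusted p = 0.0485) were lower in WT, whereas Cxcr2, of the same list, rose by 3.04 in WT and 2.14 in KO (edgeR adjusted p = 0.000218 and 0.00115). Cxcr2 lay between 0.0389 and 0.147 CPM in M0, near the floor of 3 counts, and between 0.363 and 0.773 CPM in M2. The dendritic cell marker Zbtb46 rose with IL-4 by 2.54 in WT and 2.45 in KO (edgeR adjusted p = 1.32e-05 and 9.23e-06), within a sum of 6 dendritic cell markers of 0.259 to 0.624 CPM in M0 and 1.59 to 2.16 CPM in M2, and the other 5 were under 1 CPM in every library. The B cell marker Cd79b rose in KO by 0.42 (edgeR adjusted p = 0.0237), and the sum of 4 B cell markers was 4.78 to 8.93 CPM over all libraries. The sum of 4 mast cell and basophil markers was 0.498 to 1.96 CPM, with 0 calls by edgeR in these comparisons (1 gene tested, at an unadjusted p under 0.05 in KO against WT in M0 and for IL-4 in KO). The part of these cells in the changes of the complement genes was not tested. T and NK cell and erythroid markers did not exceed 0.166 CPM in sum.

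Of 50 other complement genes, 17 had enough counts to be tested, 14 were at 0 in every library, and the others were too low. The 7 genes of the terminal pathway were not tested, and the protease gene Cfd had no count in any library. In M0 macrophages, 3 of the 17 were higher in KO and 0 lower, against 5.50% and 4.27% of all genes tested. Among them were the integrin chains of complement receptor 3, Itgam (0.45, SE 0.08, edgeR adjusted p = 0.00396) and Itgb2 (0.38, SE 0.05, edgeR adjusted p = 0.00057). Itgam was measured at 947, 935 and 900 CPM in WT M0 and at 1193, 1312 and 1292 CPM in KO M0, without overlap. In M2, 0 of the 17 were called by edgeR (5 at an unadjusted p under 0.05, 1 by DESeq2, 0 by limma), where 1.21% of all genes were higher and 1.46% lower (20.3% at an unadjusted p under 0.05, 5.93% by DESeq2).

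IL-4 raised 5 and lowered 5 of the 17 in WT, where 24.9% of all genes were higher and 25.1% lower, and raised 4 and lowered 3 in KO, where 26.8% were higher and 26.0% lower. Itgax, the alpha chain of complement receptor 4, rose most, from 15, 10.5 and 10 CPM in WT M0 to 70.9, 72.8 and 59.8 CPM in WT M2 (log2 fold change 2.51, SE 0.18, edgeR adjusted p = 1.29e-07), and by 1.65 in KO (SE 0.17, edgeR adjusted p = 3.64e-06). Cd55, whose product speeds the decay of convertases on the cell surface, fell by 1.55 in WT and 1.43 in KO (edgeR adjusted p = 3.14e-05 and 4.93e-05). Cd93 fell by 1.02 in WT and 1.12 in KO (edgeR adjusted p = 3.55e-06 and 1.31e-06). Lrp1, an endocytic receptor, fell by 0.50 in WT and 0.78 in KO (edgeR adjusted p = 0.014 and 0.000749), and the WT call was lost without WT M0 1 or WT M2 2 (edgeR adjusted p of up to 0.0648). In WT the protease genes C1rl (-0.86, edgeR adjusted p = 0.0093) and C1ra (-0.53, edgeR adjusted p = 0.0304) also fell, and C1ra lost its call without WT M0 2, WT M2 1 or WT M2 3 (edgeR adjusted p of up to 0.104) and in DESeq2 (adjusted p = 0.0534). The C1q-binding protein gene C1qbp rose in both genotypes, by 0.36 in WT and 0.41 in KO (edgeR adjusted p = 2.21e-05 and 6.17e-06). The membrane regulator gene Cr1l also rose in both, by 0.21 in WT and 0.17 in KO (edgeR adjusted p = 0.00887 and 0.0225). The KO call of Cr1l was lost without KO M0 1 or KO M2 3 (edgeR adjusted p of up to 0.101) and in the 3 limma fits (limma adjusted p of up to 0.167). For the difference between the responses, 0 of the 17 were called by edgeR (4 at an unadjusted p under 0.05, 3 by DESeq2, 0 by limma), 2 by edgeR without a filter on low counts and 3 with the mouse as a block. The shares of all genes were 17.8% at an unadjusted p under 0.05, 7.60% by DESeq2, 2.16% without a filter and 7.81% with the block.

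**Figure D5:**
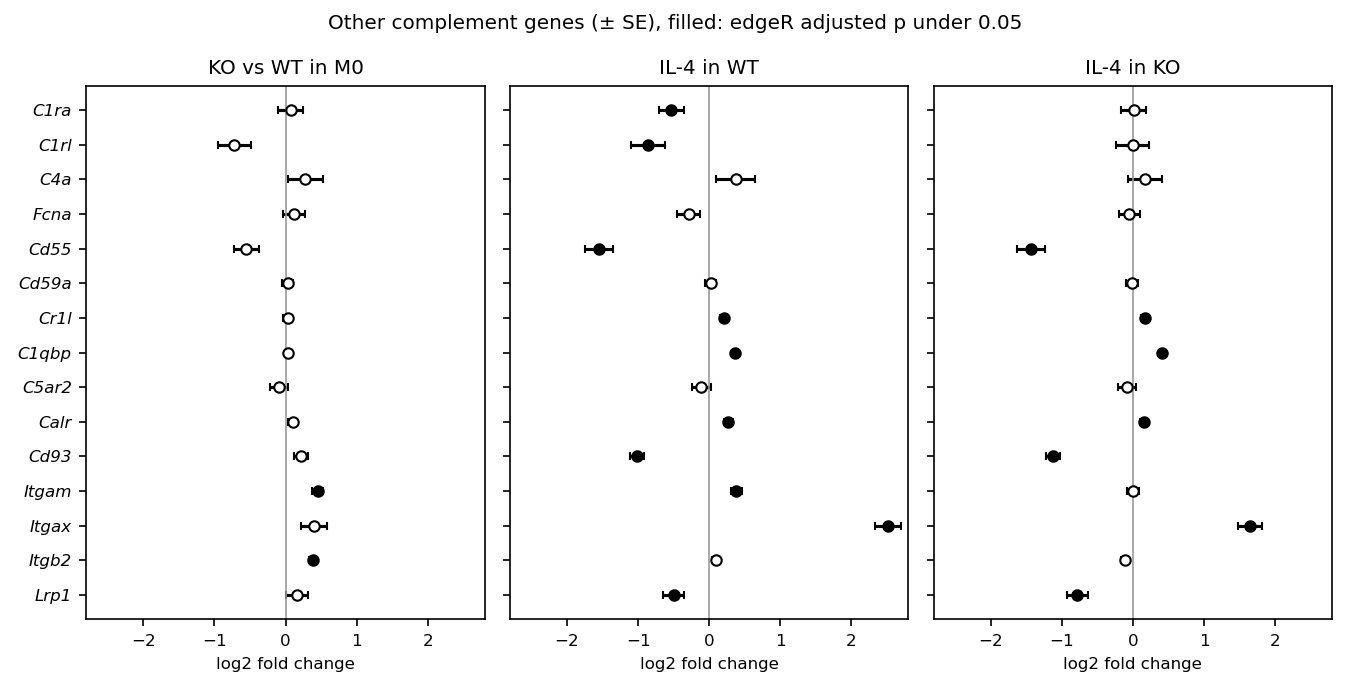
Log2 fold changes (x axes) with their SE for the 15 tested genes of the classical and lectin pathway, the membrane regulators and the other receptors, for KO against WT in M0 and for IL-4 in WT and in KO, with filled points for an edgeR adjusted p under 0.05. Itgax lies farthest to the right for IL-4 (2.51 in WT and 1.65 in KO) and Cd55 farthest to the left (-1.55 and -1.43).

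Over the 12 libraries, which form 4 groups and share treatments, log2 levels of C1qb and C1qc had a Pearson correlation of 0.842 and those of C1qa and C1qc of 0.625, given as a description. C3 correlated with C3ar1 at 0.801 and with C5ar1 at -0.919. The search for similar patterns used the 9746 tested genes averaging at least 5 CPM, from which complement genes were left out. The pattern most like that of C3 was Pabpc1 (0.992), that of C3ar1 was Nacc2 (0.989) and that of C5ar1 was Fam107b (0.976). For the other genes the closest were Exog for C1qa (0.935), Cstf1 for C1qb (0.915), Selplg for Cfp (0.924) and Phf20l1 for Cfb (0.908). Trem2, a receptor gene of macrophages, was among the 3 genes closest to C1qc (0.852).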

How the data were processed

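RNA was measured by strand-specific poly(A) RNA-Seq (1 × 75 nt reads) in 12 libraries. Per the labels and the methods, the authors used FastQC 0.11.2, the Grape-nf pipeline with Nextflow on the GRCm38/mm10 assembly, and DESeq2 1.40.2. The quantification program and the gene annotation used for the counts were not given in the sources used here. The authors deposited 1 table per library, with expected counts (estimated numbers of reads per gene) and TPM for 38887 genes. TPM came as a maximum-likelihood and as a posterior mean estimate. Their DESeq2 tables, which hold fold changes and p-values, served only for gene symbols.

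Expected counts were rounded and fitted with edgeR 4.0.16 in R 4.3.3 (filterByExpr, TMM factors, quasi-likelihood F test). The model held all 12 libraries and 1 coefficient for each group. Each p was adjusted over 12846 genes by the Benjamini-Hochberg method, and genes were called at an adjusted p under 0.05. CPM were computed from the rounded counts, with a biological coefficient of variation of 8.08%. Alternatives were DESeq2 1.42.0, RLE size factors, no filter on low counts, at least 1 CPM in at least 3 libraries, limma 3.58.1 on log2(TPM + 1), log2(TPM + 0.1) and log2(posterior mean TPM + 1), a replicate block, only the 6 libraries of a comparison, and leaving out each library. Summaries were made in Python 3.11.15 with numpy 2.4.6 and pandas 2.3.3. Scripts were tested on simulated data.

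Replicates were numbered as in the sample names. Libraries of the same number in M0 and M2 varied together (after subtracting group means, their correlations were 0.49, 0.194 and 0.483 in WT, 0.211, 0.232 and 0.292 in KO), so the number was taken as the mouse. Per the methods, the 3 libraries of a group come from 3 mice.

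The 8 genes, the other complement genes and the marker lists were chosen with earlier results of these data known. Named among the other complement genes were up to 6 called genes per comparison with the largest change, averaging at least 1 CPM. The genes most alike were the 3 with the highest Pearson correlation of log2(CPM + 1) per member, among genes averaging at least 5 CPM. A few genes that these rules choose are not reported here. Coordinates are from GENCODE M21 and sequences from RefSeq.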

Additional observations from a re-analysis of the deposited data

Results flagged for a closer look

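C3 and C1qc differed between the genotypes in their IL-4 response when the mouse was a block. The KO minus WT response was -0.49 on the log2 scale for C3 (SE 0.07, edgeR adjusted p = 0.00646), and 0.35 for C1qc (SE 0.06, edgeR adjusted p = 0.0106). Without the block neither passed the test in edgeR (edgeR adjusted p = 0.128 and 0.0872), whereas DESeq2 without a block called both (adjusted p = 0.0429 and 0.0298), and over the fits without 1 library the edgeR adjusted p lay between 0.0734 and 0.26 for C3 and between 0.0222 and 0.203 for C1qc, lowest for C1qc without WT M2 1.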

How the results depend on the processing

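Of the 8 genes, only C1qa was called in M0 in each of the 3 limma fits, as C1qc lost its call. In M2, DESeq2 called 3 of the 8 (5.93% of all genes) and edgeR without a filter on low counts 2 (2.05%). The replicate block called 3 (C3, C3ar1 and Cfp, edgeR adjusted p = 0.0134, 0.0333 and 0.044), beside 3.22% of all genes, although the number did not pair the genotypes (correlations of -0.0764 to 0.0999). For IL-4 in WT, limma on log2(posterior mean TPM + 1) called C1qa, C1qb, C1qc, C3 and C5ar1 but not C3ar1. In KO it called C3, C5ar1 and Cfb, and limma on log2(TPM + 0.1) called C1qb, C3 and C5ar1. The shares of all genes called by limma were not computed for M0 and for IL-4. For the difference between the responses DESeq2 called 3 of the 8 (7.60% of all genes) and the replicate block 2 (7.81%). Of the other complement genes, the replicate block called 5 in M0, where its share of all genes was not computed. It called 2 in M2 (3.22% of all genes) and 3 for the difference (7.81%). DESeq2 called 1 in M2 (5.93%) and 3 for the difference (7.60%), and edgeR without a filter 2 for the difference (2.16%). The cause was not tested. Besides the calls given in the results, the block with the mouse changed no other call of the 8 genes.

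Without 1 library, the calls among the 8 genes ranged from 1 to 3 in M0, 0 to 3 in M2, 3 to 5 for IL-4 in WT, 3 to 5 for IL-4 in KO and 0 to 2 for the difference, and those among the other complement genes from 2 to 4, 0 to 1, 9 to 10, 5 to 8 and 0 to 1. The shares of all genes called were not computed for these fits. In M2, C3 and Cfp passed without WT M0 3 (edgeR adjusted p = 0.0383 and 0.0219), and for IL-4 in WT, C1qa and C1qc passed without WT M2 1 (edgeR adjusted p = 0.0106 and 0.0163).

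Signs turned in uncalled results. Without 1 library, C3 in M0 ranged from -0.01 (without KO M0 1, and -0.00 without WT M0 3) to 0.19, C5ar1 in M0 from -0.08 to 0.02 (without WT M0 3), and Cfp for IL-4 in WT from -0.12 to 0.03 (without WT M0 3). Cfb in M2 went to -0.13, -0.55 and -0.21 in the limma fits with log2(TPM + 1), log2(TPM + 0.1) and the posterior mean and ranged from -0.05 (without KO M2 3) to 1.07 without 1 library. It went for IL-4 in WT to 0.01 and 0.07 with log2(TPM + 1) and the posterior mean, and ranged for the difference from -0.91 to 0.21 (without KO M2 1). At 3 counts, a gene stood at 0.0757 to 0.15 CPM of the library totals. In KO M2 1 this was 0.11 CPM, and Cfb with 2 counts lay below it.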
